A study of Mus musculus with 6 samples.

Results

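The 9 genes described here encode enzymes of glycolysis, and they were taken as every row of the deposited count table whose gene name was Hk1, Hk2, Hk3, Pfkl, Pfkp, Aldoa, Gapdh, Pkm or Ldha. They fill 10 of 54532 rows, since Aldoa is listed under 2 Ensembl identifiers. Poly-A RNA of the liver was sequenced from 3 gSpns1-cKO mice and 3 control mice, with 1 library per mouse. The gSpns1-cKO mice were Spns1 fl/fl with Rosa26Cre-ERT2, a Cre that is made throughout the body and becomes active with tamoxifen, and tamoxifen was injected at 50 mg/kg on postnatal days 11, 13 and 15 to remove exon 3 of Spns1. Spns1 encodes a lysosomal lysolipid transporter. The controls were Spns1 fl/fl littermates without Cre by the study's methods and are called wild type in the labels. Whether they received tamoxifen, and the age of the mice when livers were collected, are not given in the sources used here. Because Cre acted throughout the body, every cell type of the liver could carry the deletion.

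Glycolysis turns glucose into pyruvate, and lactate dehydrogenase interconverts pyruvate and lactate. Several of its steps are served by isoenzymes from separate genes. Adult hepatocytes use, among others, the liver-type phosphofructokinase Pfkl and the pyruvate kinase Pklr, whereas Hk1, Hk2, Hk3, Pfkp, Aldoa and Pkm are the forms of other tissues, of immune cells and of dividing cells. Gapdh, the dehydrogenase in the middle of the pathway, is often used as a reference gene. All positions are in GRCm38 (mm10).

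The libraries held 30350002 to 35295611 counts. Levels are CPM, which are counts over the library size after scaling by trimmed mean of M values (TMM), with factors of 0.834 to 0.873 in controls and 1.16 to 1.18 in gSpns1-cKO. Spns1 itself had 35.9, 50.7 and 34.6 CPM in controls and 17.8, 30.6 and 17.8 CPM in gSpns1-cKO. It was lower in all 3 gSpns1-cKO libraries (log2 fold change -0.87, SE 0.25, adjusted p = 0.0300, edgeR), although the call was lost without control 2 (adjusted p = 0.0785), gSpns1-cKO 1 (0.0910) or gSpns1-cKO 3 (0.0830), and with upper-quartile scaling (-0.74, adjusted p = 0.0635) or library size as the only scaling (-0.43, adjusted p = 0.212). The Spns1 count covers the whole gene and not exon 3 alone, so it does not measure the deletion. By Western blot, the study reported a reduced SPNS1 protein band in gSpns1-cKO livers. The 10 hepatocyte markers summed to 107881 to 118419 CPM in controls and to 66100 to 75263 CPM in gSpns1-cKO, and 6 of 10 were lower. Markers are called higher or lower at an edgeR adjusted p under 0.05. By the same test, 21.3% of all genes tested were higher and 20.5% lower. All 10 macrophage markers were higher, and their sum went from 212 to 322 CPM in controls to 760 to 1130 CPM in gSpns1-cKO. The summed markers of cholangiocytes (44.4 to 62.9 against 171 to 280 CPM, 6 of 6 higher), stellate cells and fibroblasts (192 to 221 against 511 to 557 CPM, 6 of 8 higher) and endothelium (144 to 158 against 211 to 258 CPM, 5 of 7 higher) were also higher in gSpns1-cKO. Neutrophil markers summed to 2.03 to 5.03 against 5.84 to 10.96 CPM (7 genes, 3 of the 4 tested higher). Lymphocyte markers summed to 4.82 to 5.94 against 7.28 to 8.03 CPM (2 of 9 higher, near the share of all genes, and 1 lower). Markers of proliferating cells had overlapping sums of 29.2 to 39.4 against 34.7 to 51.5 CPM. Erythroid markers summed to 132 to 155 against 83.4 to 193 CPM (6 genes, 2 of the 5 tested higher, 1 lower). Adipocyte markers summed to 6.72 to 7.60 against 9.45 to 12.7 CPM (4 genes, the 1 tested higher, Lep at 0 in every library). Skeletal muscle markers reached at most 0.249 CPM in any library. The part of these cell types in the results was not tested, and in bulk liver a changed number of cells of a type and a changed amount of RNA per cell cannot be told apart.

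Of the 9 genes, all of which passed the filter on low counts, 6 were higher in gSpns1-cKO livers, 1 was lower and 2 did not pass the test. Hk1, Hk2, Hk3, Pfkp, Aldoa and Pkm were higher, Ldha was lower, and Pfkl and Gapdh were not past an adjusted p of 0.05 (edgeR quasi-likelihood test, Benjamini-Hochberg adjustment over 15449 genes). Among all genes tested, 41.8% passed, 21.3% in the higher direction and 20.5% in the lower direction. The median log2 fold change was 1.38 over the 9 genes and 0.01 over all genes. In 7 of the 9 genes the 3 gSpns1-cKO libraries did not overlap the 3 control libraries, against 54.1% of all genes. The 9 genes and the lists below were chosen with earlier results of these data known, so contrasts with all genes are descriptions only. The plot of CPM by library shows the 9 genes side by side.

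**Figure D1:**
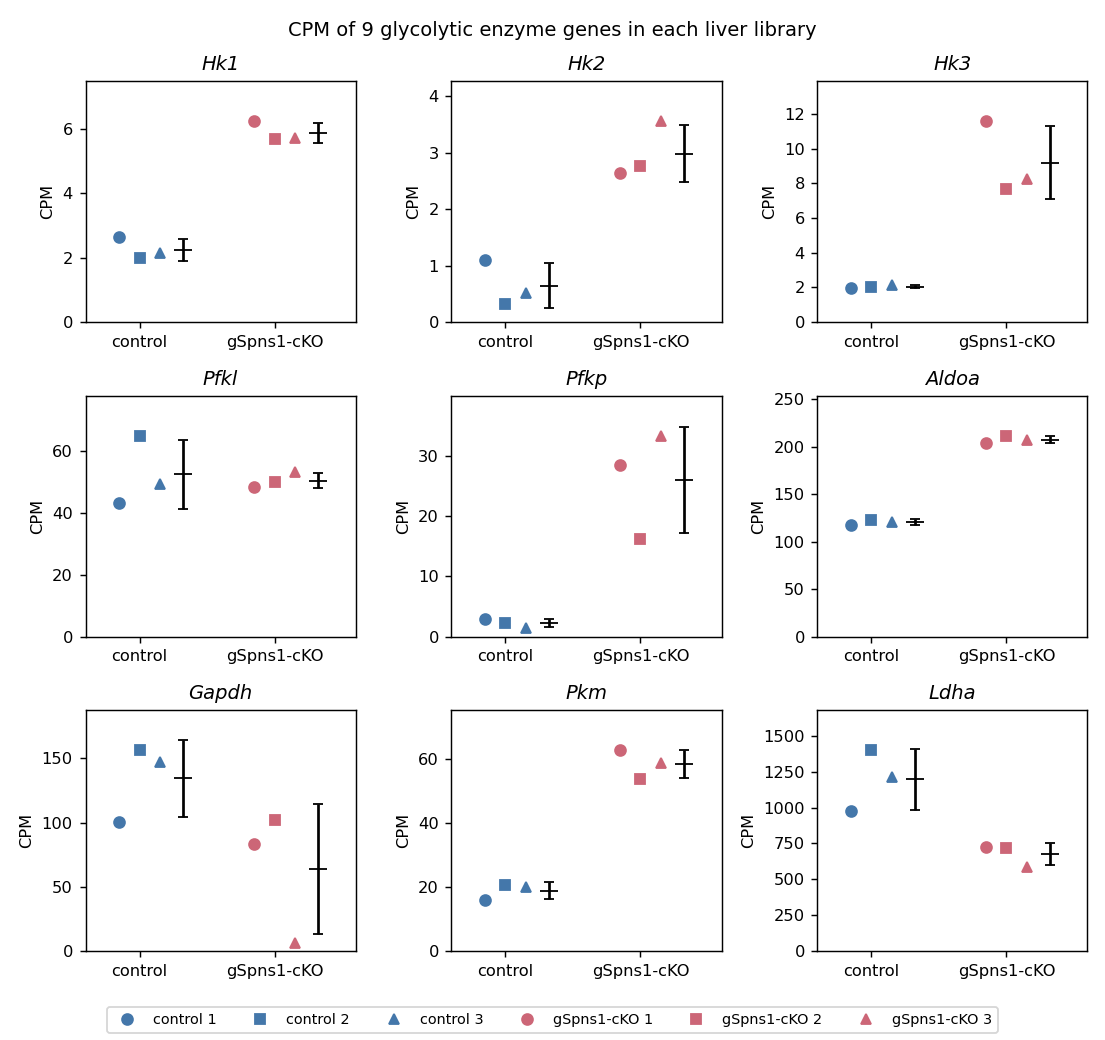
CPM (vertical axes, linear, starting at 0) of each of the 9 genes in the 3 control and 3 gSpns1-cKO liver libraries, with 1 symbol per library and bars for the mean ± SD of a group. Hk1, Hk2, Hk3, Pfkp, Aldoa and Pkm separate upward in gSpns1-cKO, Ldha separates downward, and a single gSpns1-cKO library lies far below the other 5 for Gapdh.

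Hexokinases add a phosphate to glucose as it enters the pathway. Hk1 (ENSMUSG00000037012, chromosome 10, 62268855 to 62379908, minus strand), the hexokinase of most tissues, had 74, 61 and 54 counts in controls and 224, 218 and 224 counts in gSpns1-cKO. The gSpns1-cKO libraries lay close together and well above the controls, at 5.87 ± 0.31 CPM against 2.25 ± 0.34 CPM (SD, n = 3 per group). The difference was a log2 fold change of 1.38 (SE 0.20, edgeR adjusted p = 0.000479).

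Hk2 (ENSMUSG00000000628, chromosome 6, 82725025 to 82774454, minus strand), known as the inducible hexokinase of muscle, fat and tumor cells, had 31, 10 and 13 counts in controls and 95, 106 and 140 counts in gSpns1-cKO. Control 1 held most of the control counts, and the groups did not overlap. The log2 fold change was 2.21 (SE 0.40, edgeR adjusted p = 0.00168), and 2.83 without control 1. Hk3 (ENSMUSG00000025877, chromosome 13, 55005985 to 55021385, minus strand), a hexokinase known from myeloid cells, had 55, 63 and 54 counts in controls and 417, 295 and 325 counts in gSpns1-cKO. The control libraries were nearly equal and each gSpns1-cKO library was several times higher, with the highest value in gSpns1-cKO 1. The log2 fold change was 2.16 (SE 0.21, edgeR adjusted p = 5.09e-05).

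The 250 bases before the transcription start are shown for 4 of the genes, from RefSeq (GRCm38.p6), because the direction of the change differed among them. Each sequence reads 5′ to 3′ on the strand of the gene, and the start nearest to the 5′ end of the deposited gene was used. Capitals mark ACGTG or GCGTG on either strand, the core letters that hypoxia-inducible factors are known to bind. RefSeq gave 2 starts for Hk1, Pkm and Ldha and 3 for Aldoa, and only the nearest was searched. Which start is used in these livers was not tested. Of the 9 genes, 6 held at least 1 such match in this stretch, as did 38.6% of 32851 RefSeq promoter stretches of the same length. Those 32851 stretches include every listed start of a gene, so the 2 shares are not of like sets.
Hk2, minus strand, chr6:82774455-82774704: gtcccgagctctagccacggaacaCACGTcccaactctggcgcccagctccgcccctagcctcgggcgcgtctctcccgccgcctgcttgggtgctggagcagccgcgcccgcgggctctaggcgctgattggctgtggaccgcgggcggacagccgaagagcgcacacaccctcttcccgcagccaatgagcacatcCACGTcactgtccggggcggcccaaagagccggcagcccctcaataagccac
Pfkp, minus strand, chr13:6648772-6649021: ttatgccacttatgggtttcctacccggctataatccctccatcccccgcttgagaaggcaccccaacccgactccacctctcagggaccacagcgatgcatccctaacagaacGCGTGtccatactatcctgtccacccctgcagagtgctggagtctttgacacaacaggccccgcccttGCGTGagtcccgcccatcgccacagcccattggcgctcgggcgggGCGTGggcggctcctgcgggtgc
Pkm, plus strand, chr9:59656326-59656575: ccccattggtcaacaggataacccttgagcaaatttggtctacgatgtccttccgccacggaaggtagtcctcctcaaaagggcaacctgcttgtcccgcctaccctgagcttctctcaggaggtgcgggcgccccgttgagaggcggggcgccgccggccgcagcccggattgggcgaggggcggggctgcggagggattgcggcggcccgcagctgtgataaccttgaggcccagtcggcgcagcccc
Ldha, plus strand, chr7:46845554-46845803: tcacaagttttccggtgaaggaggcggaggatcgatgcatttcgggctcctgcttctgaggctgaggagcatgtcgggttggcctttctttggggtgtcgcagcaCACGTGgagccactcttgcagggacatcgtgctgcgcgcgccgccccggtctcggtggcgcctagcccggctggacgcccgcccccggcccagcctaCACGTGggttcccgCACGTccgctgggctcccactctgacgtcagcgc

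In these stretches, Hk2 held 2 matches to ACGTG, Pfkp 3 matches to GCGTG and Pkm 0 matches to either. Ldha held 5 matches to ACGTG, of which 4 come from 2 copies of CACGTG, a palindrome that contains ACGTG on both strands. Ldha was the only one of the 9 genes with CACGTG, found in 6.02% of all stretches. GGGCGG, the letters known as the GC box, was found in Hk2 (3 matches), Pfkp (4), Pkm (1) and Ldha (2), and in 32.7% of all stretches. Among the genes not shown, Hk1 and Aldoa held 0 matches to ACGTG or GCGTG in the stretch searched, and their other starts were not searched. Hk3 held 1 match to ACGTG, and Pfkl and Gapdh held 1 and 2 matches to GCGTG. Whether a match bears on the change of a gene was not tested. A match is only a description of these letters.

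On the scale of CPM per kb of gene length, Hk3 had the highest level of the 3 hexokinases, at 0.555 ± 0.0241 in controls and 2.49 ± 0.572 in gSpns1-cKO (mean ± SD, n = 3). Hk1 had 0.264 ± 0.0399 and 0.688 ± 0.0363 CPM per kb, and Hk2 0.108 ± 0.0680 and 0.501 ± 0.0838 CPM per kb. On this scale the order of the 3 genes was the same in both groups. The deposited Hk1 length of 8532 bases is well above its longest coding transcript of 4278 bases. For Hk3 these are 3682 and 3219 bases, so levels per kb of Hk1 may be low against Hk3. In CPM, the mean of Hk1 was above that of Hk3 in controls (2.25 against 2.05) and below it in gSpns1-cKO (5.87 against 9.18). Hkdc1, a further hexokinase gene, had 3, 3 and 2 counts in controls and 54, 46 and 21 counts in gSpns1-cKO, a ratio of 11.2 after scaling (95% interval 5.51 to 26.6, counting error only).

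Phosphofructokinase carries out the committed step of glycolysis. Pfkp (ENSMUSG00000021196, chromosome 13, 6579768 to 6648777, minus strand), the platelet form, had 82, 71 and 38 counts in controls and 1021, 622 and 1308 counts in gSpns1-cKO. Its level went from 2.24 ± 0.710 to 25.96 ± 8.79 CPM, and the lowest gSpns1-cKO library, at 16.2 CPM, was far above the highest control, at 2.92 CPM. With a log2 fold change of 3.52 (SE 0.34, edgeR adjusted p = 0.000292), this was the largest change among the 9 genes. Pfkl (ENSMUSG00000020277, chromosome 10, 77986947 to 78010083, minus strand), the liver form, had 43.0, 64.8 and 49.2 CPM in controls and 48.1, 49.7 and 53.0 CPM in gSpns1-cKO. The groups overlapped, and the log2 fold change of -0.06 (SE 0.14, edgeR adjusted p = 0.781) was within the spread between libraries. The muscle form Pfkm had 593, 672 and 553 counts in controls and 519, 549 and 511 counts in gSpns1-cKO, or 21.6 ± 0.431 and 13.9 ± 0.792 CPM. It fell by 0.63 on the log2 scale (SE 0.11, edgeR adjusted p = 0.00130), a call that was lost with library size as the only scaling (-0.19, adjusted p = 0.172).

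Per kb of gene length, Pfkp made up 1.68%, 1.05% and 0.799% of the 3 phosphofructokinase genes in controls and 15.5%, 9.35% and 17.3% in gSpns1-cKO. Pfkl held 53.8% ± 4.87 in controls and 55.3% ± 2.37 in gSpns1-cKO, and Pfkm 45.1% ± 4.65 and 30.6% ± 3.08. The summed level of the 3 genes was 14.5 ± 1.76 CPM per kb in controls and 13.6 ± 0.687 CPM per kb in gSpns1-cKO. With TMM scaling the family total thus moved by less than the spread of the controls. The share of Pfkp was higher and that of Pfkm lower, both without overlap between groups. Shares within a library do not depend on scaling, but the total does. With library size as the only scaling, the log2 fold change of Pfkl was 0.39 (edgeR adjusted p = 0.0503). The deposited Pfkp length of 13401 bases is well above its longest coding transcript of 4145 bases, so levels per kb of Pfkp may be low against the other forms.

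**Figure D2:**
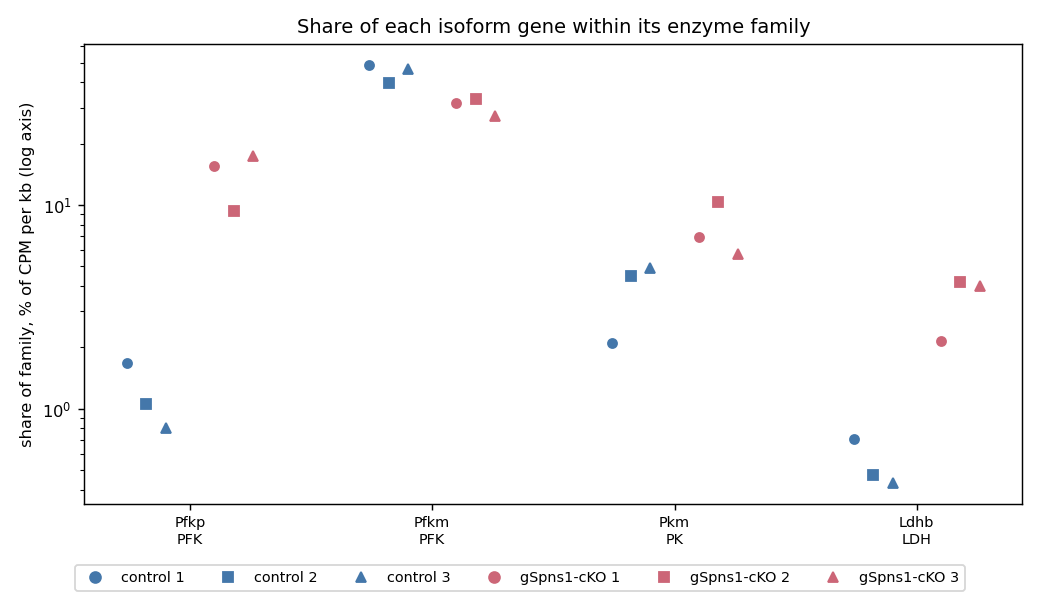
Share of each isoform gene within its enzyme family (vertical axis, log scale, percent of summed CPM per kb; PFK is phosphofructokinase, PK pyruvate kinase, LDH lactate dehydrogenase), with 1 symbol per library. The shares of Pfkp, Pkm and Ldhb are higher, and that of Pfkm lower, in every gSpns1-cKO library than in any control library.

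Aldolase splits the sugar phosphate into its 3-carbon parts. Aldoa (ENSMUSG00000030695, chromosome 7, 126795234 to 126800751, minus strand), the form of muscle and most other tissues, had 117, 123 and 120 CPM in controls and 203, 211 and 207 CPM in gSpns1-cKO. The libraries of each group were nearly equal, and the log2 fold change was 0.79 (SE 0.11, edgeR adjusted p = 0.000314). The other Aldoa row (ENSMUSG00000114515) had at most 7 counts in any library and was not tested. Aldoc, a form known from brain, had 28.3, 34.3 and 27.2 CPM in controls and 26.9, 39.6 and 28.6 CPM in gSpns1-cKO, and its groups overlapped (log2 fold change 0.08, SE 0.16, edgeR adjusted p = 0.704).

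Gapdh (ENSMUSG00000057666, chromosome 6, 125161715 to 125166467, minus strand) had 2825, 4804 and 3713 counts in controls and 2986, 3902 and 248 counts in gSpns1-cKO. This is 100 CPM, 156 CPM and 147 CPM in controls and 83.0, 102 and 6.31 CPM in gSpns1-cKO. The first 2 gSpns1-cKO libraries lay near the lowest control, whereas gSpns1-cKO 3 was 12.3-fold below the next lowest library on the scale of CPM plus 0.5. The log2 fold change of -1.08 had an SE of 1.03 (edgeR adjusted p = 0.461), and the groups overlapped. Without gSpns1-cKO 3 the log2 fold change was -0.54 (adjusted p = 0.0692).

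Between the lowest and the highest of the 6 libraries, Gapdh ranged over 4.63 log2 units, or 24.7-fold. Over 14 other genes commonly used as references the same range was 0.27 to 0.99 log2 units, with a median of 0.63. The SD of log2 CPM in gSpns1-cKO was 2.24 for Gapdh and 0.08 to 0.40 for the 14 genes, and in controls it was 0.34 for Gapdh and 0.02 to 0.27 for them. Without gSpns1-cKO 3, Gapdh ranged over 0.91 log2 units. Of the 14 genes, Gusb was higher in gSpns1-cKO (log2 fold change 0.48) and Rpl13a (-0.66) was lower at an edgeR adjusted p under 0.05. Tbp had the smallest range of the 14 and a log2 fold change of 0.05 (SE 0.14, edgeR adjusted p = 0.791).

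**Figure D3:**
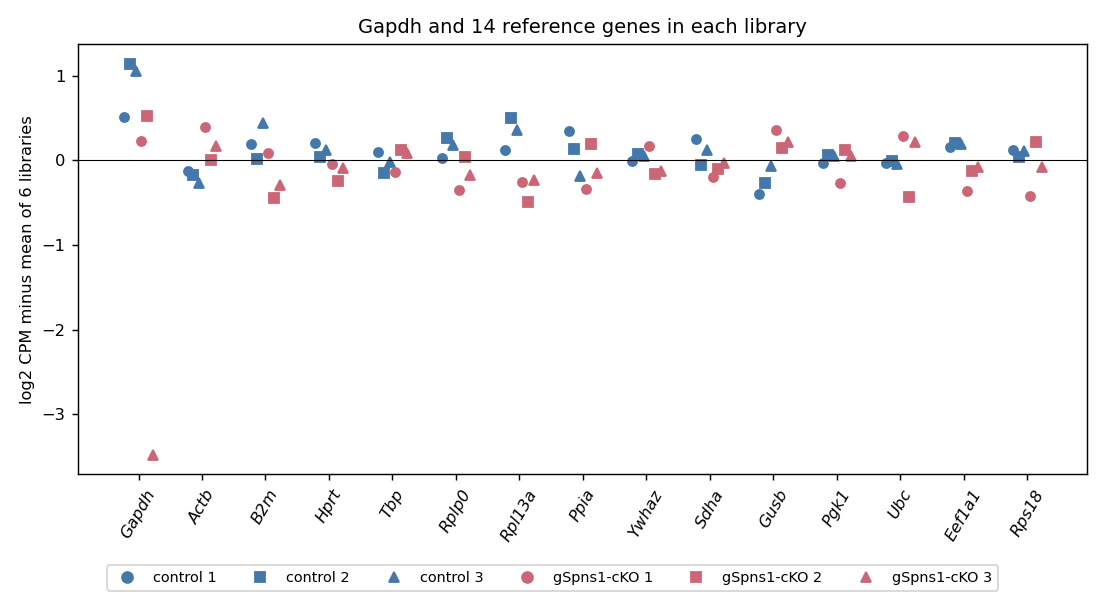
Log2 CPM minus the mean of the 6 libraries (vertical axis) for Gapdh and 14 reference genes, with 1 symbol per library. Gapdh in gSpns1-cKO 3 lies 3.48 log2 units below its mean, while none of the 14 reference genes ranges over more than 0.99 log2 units.

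Over the 8010 genes that averaged 10 CPM or more, only Mt1 had a larger gap than Gapdh between its lowest and its next lowest library. That gap was 3.94 log2 units for Mt1, whose lowest library was control 1, and 3.62 for Gapdh. A gap of over 1 log2 unit was found in 35 of these genes, and in 4 of them the lowest library was gSpns1-cKO 3. Of 4 genes beside Gapdh on chromosome 6, Nop2 had 26.2 CPM in gSpns1-cKO 3 against 20.9 to 25.1 CPM in the other 5 libraries, and Iffo1 had 8.80 CPM against 6.13 to 11.5 CPM. Ncapd2 was lowest in gSpns1-cKO 3, at 2.80 CPM against 3.20 to 4.12 CPM in the other 5. Mrpl51 had 55.4 CPM in it, between the other gSpns1-cKO libraries (55.1 and 61.0 CPM) and below every control (74.9 to 77.5 CPM). The gene span of Iffo1 overlaps that of Gapdh by 68 bases on the opposite strand.

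Reads of Gapdh can also be counted for its processed copies. In GENCODE M21, 97 other genes held a transcript at least 95% identical to a Gapdh transcript over at least 100 bases, and 88 of them had a count. The first 100 coding bases of the transcript Gapdh-201, from GENCODE M21, are shown with the aligned stretch of the 3 copies that had the most counts, because reads from such a stretch fit several genes. Among the coding stretches of 100 bases that aligned in all 3 copies, it was the first with the most differences between Gm3839 and Gapdh. Capitals mark bases that differ from Gapdh. Gm3839 lies on chromosome 14 (11280735 to 11356726, minus strand, labelled protein coding), and the processed pseudogenes Gm5559 and Gm7336 lie on chromosome 5 (95861714 to 95862715, plus strand) and chromosome 7 (51746647 to 51747878, plus strand).
Gapdh: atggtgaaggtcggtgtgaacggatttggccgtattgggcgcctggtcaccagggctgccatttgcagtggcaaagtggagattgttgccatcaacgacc
Gm3839: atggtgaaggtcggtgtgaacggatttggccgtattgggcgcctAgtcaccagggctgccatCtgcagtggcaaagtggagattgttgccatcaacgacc
Gm5559: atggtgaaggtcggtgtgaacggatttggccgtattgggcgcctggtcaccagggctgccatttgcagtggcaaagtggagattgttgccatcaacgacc
Gm7336: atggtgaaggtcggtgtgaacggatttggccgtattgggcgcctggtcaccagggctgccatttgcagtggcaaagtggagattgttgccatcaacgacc

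Gm3839 differed from Gapdh at 2 of these 100 bases, and Gm5559 and Gm7336 at 0. Leaving out Gm3839, the other 96 copies summed to 824, 844 and 724 counts in controls and 1026, 849 and 908 counts in gSpns1-cKO. This is 29.3, 27.4 and 28.6 CPM in controls and 28.5, 22.1 and 23.1 CPM in gSpns1-cKO. On this scale gSpns1-cKO 3 was below every control and above gSpns1-cKO 2, and its distance from the other libraries was far smaller than for Gapdh, which had 6.31 CPM in it. Gapdh made up 70.3%, 76.8% and 76.8% of the counts of Gapdh and all its copies in controls, 73.4% and 81.0% in the first 2 gSpns1-cKO libraries, and 20.6% in gSpns1-cKO 3. Gm3839 moved differently from both. It had 367, 610 and 396 counts in controls and 55, 66 and 45 counts in gSpns1-cKO, low in all 3 of the latter (log2 fold change -3.46, SE 0.22, edgeR adjusted p = 4.97e-06). It was named here because it was the copy with the most counts. How reads that fit several genes were counted is not given in the sources used here, so the counts of Gapdh and its copies are uncertain. With the counts of all copies added to Gapdh, the log2 fold change was -0.997 (adjusted p = 0.225), so the call did not change.

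**Figure D4:**
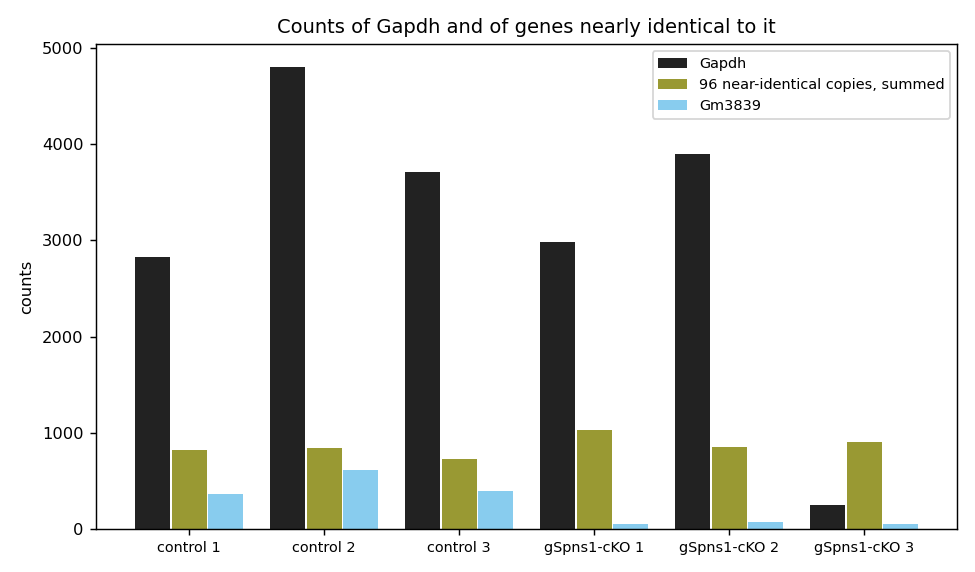
Counts (vertical axis, linear, starting at 0) of Gapdh, of its 96 near-identical copies without Gm3839 (summed), and of Gm3839, in each library. Gapdh has 248 counts in gSpns1-cKO 3 against 2825 to 4804 in the other libraries, the summed copies stay between 724 and 1026, and Gm3839 is at 45 to 66 in gSpns1-cKO against 367 to 610 in controls.

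By the root mean square difference of centred log2 CPM over the 6 libraries, the 4 genes most like Gapdh among these 8010 were Slc25a25 (0.78 log2 units), Pck1 (0.88), Ctcflos (0.96) and Gpcpd1 (1.04). Pck1 encodes a key enzyme of gluconeogenesis and Slc25a25 a mitochondrial carrier. Slc25a25, the closest, had 179, 239 and 211 CPM in controls and 91.4, 146 and 39.1 CPM in gSpns1-cKO, so gSpns1-cKO 3 was also its lowest library. Its gap to the next lowest library was 1.21 log2 units, against 3.62 for Gapdh. For the other 3 this gap was 0.85 to 1.06 log2 units. All 4 were lowest in gSpns1-cKO 3, but a choice by likeness to Gapdh favours such genes, so this is not a separate result.

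Pyruvate kinase makes pyruvate in the last step. Pkm (ENSMUSG00000032294, chromosome 9, 59656368 to 59679375, plus strand), the form of muscle and of many non-hepatocyte and dividing cells, had 16.1, 20.8 and 20.0 CPM in controls and 62.7, 53.8 and 58.8 CPM in gSpns1-cKO. Every gSpns1-cKO library was above every control, and the log2 fold change of 1.62 (SE 0.12, edgeR adjusted p = 1.40e-05) had the smallest adjusted p of the 9 genes. The count of the gene does not separate its splice forms. Pklr, the liver form, varied widely, with 489, 287 and 252 CPM in controls and 541, 303 and 626 CPM in gSpns1-cKO, and its groups overlapped (log2 fold change 0.52, SE 0.34, edgeR adjusted p = 0.272). The share of Pkm in the pair, per kb, was 2.09%, 4.49% and 4.88% in controls and 6.98%, 10.3% and 5.73% in gSpns1-cKO. The deposited Pkm length of 5001 bases is well above its longest coding transcript of 2432 bases, so levels per kb of Pkm may be low.

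Ldha (ENSMUSG00000063229, chromosome 7, 46841475 to 46855627, plus strand), the main lactate dehydrogenase of liver and muscle, was the gene among the 9 that fell. It had 979 CPM, 1398 CPM and 1212 CPM in controls and 725, 717 and 588 CPM in gSpns1-cKO, and the groups did not overlap. The log2 fold change was -0.82 (SE 0.17, edgeR adjusted p = 0.00373). With library size as the only scaling it was -0.38 (adjusted p = 0.0835), where the median of all genes stood at 0.46 log2 units, so relative to that median Ldha was low under both scalings. Ldhb, the form known from heart, had 3.31, 3.15 and 2.49 CPM in controls and 7.51, 14.9 and 11.7 CPM in gSpns1-cKO. It rose by a log2 fold change of 1.93 (SE 0.25, edgeR adjusted p = 0.000319). Ldha still held 99.5% ± 0.149 of the pair per kb in controls and 96.5% ± 1.14 in gSpns1-cKO. Its deposited length of 3310 bases is above its longest coding transcript of 1815 bases, so levels per kb of Ldha may be low.

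The ratio between forms was compared within each library, where library scaling cancels, for 6 pairs. The log2 ratio was higher in gSpns1-cKO without overlap between groups in 3 pairs. The difference of mean log2 ratios was 3.56 for Pfkp to Pfkl, 2.70 for Ldhb to Ldha and 1.12 for Pkm to Pklr. The difference for Pfkm to Pfkl was -0.60 without overlap, and Eno1 to Eno3 (0.65, exact permutation p = 0.2, adjusted p = 0.240) and Slc2a1 to Slc2a2 (0.14, exact permutation p = 0.8) overlapped. For the 4 pairs without overlap the two-sided exact permutation test gave p = 0.1 each (adjusted p = 0.150 over the 6 pairs), the smallest p that 3 against 3 libraries allow, so this test could not pass 0.05 for any pair.

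Of the 19 other glycolysis enzyme genes looked at, 15 passed the filter on low counts, and 4 of them were higher in gSpns1-cKO and 1, Pfkm, was lower, against 21.3% and 20.5% of all genes tested, so the higher share was near that of all genes. The median log2 fold change of the 15 was 0.14. Besides Hkdc1 and Ldhb, the higher genes were Gpi1 (glucose-6-phosphate isomerase, from 221 ± 33.5 to 431 ± 147 CPM, log2 fold change 0.96, SE 0.23, edgeR adjusted p = 0.00889) and Pgam1 (phosphoglycerate mutase, from 88.8 ± 7.63 to 112 ± 9.14 CPM, log2 fold change 0.34, SE 0.11, edgeR adjusted p = 0.0352). Gpi1 was highest in gSpns1-cKO 3, at 601 CPM, where Gapdh was lowest. The Pgam1 call was lost without control 1 (adjusted p = 0.133), control 3 (0.0872), gSpns1-cKO 1 (0.0926) or gSpns1-cKO 3 (0.0759). The steps next to Gapdh, and enolase, gave values near 0: the log2 fold change was -0.04 (SE 0.13) for Tpi1, triose phosphate isomerase, -0.05 (SE 0.14) for Pgk1, phosphoglycerate kinase, and 0.14 (SE 0.15) for Eno1, the main enolase. All 3 had positive log2 fold changes with library size as the only scaling (0.40, 0.40 and 0.58), near the median of all genes. Reads of Eno1 may be shared with its close copy Eno1b, which had 163 to 236 counts in controls and 382 to 573 counts in gSpns1-cKO. Gapdhs, Pgam2, Bpgm and Adpgk ranged from -0.22 to 0.16, and Eno3, the muscle enolase, was at -0.54 (SE 0.23, edgeR adjusted p = 0.0800, and 0.0240 without control 3). Of the 4 genes not tested, Pgk2 and Ldhc had 0 counts in every library, Eno4 had at most 12 counts in a library, and the neuronal enolase Eno2 had 3, 1 and 1 counts in controls and 9, 20 and 31 in gSpns1-cKO, a scaled ratio of 8.89 (95% interval 3.61 to 28.4, counting error only).

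**Figure D5:**
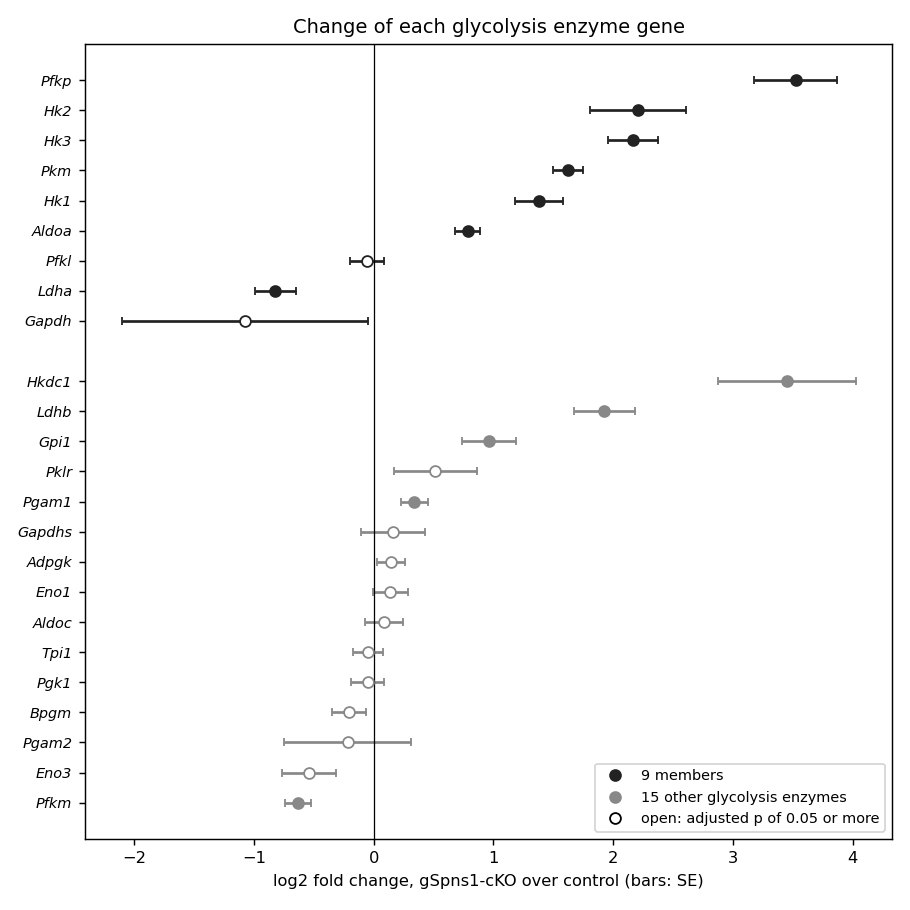
Log2 fold change of gSpns1-cKO over control (horizontal axis) with its SE (bars) for the 9 genes (black) and the 15 other glycolysis enzyme genes tested (grey), with open circles for an adjusted p of 0.05 or more. Pfkp at 3.52 and Hkdc1 at 3.45 lie farthest to the right, and the bar of Gapdh is the longest.

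Among 20 glucose and lactate transporters and regulators of glycolysis, all tested, 9 were higher and 2 lower, against 21.3% and 20.5% of all genes tested (41.8% in either direction), with a median log2 fold change of 0.19. The 4 largest rises were in Slc16a3, the lactate exporter of glycolytic cells (0.33 to 1.77 CPM, log2 fold change 2.39, SE 0.38, edgeR adjusted p = 0.000827), Pdk3, a kinase that inhibits pyruvate dehydrogenase (0.45 to 1.53 CPM, 1.76, SE 0.51), Slc16a7, a monocarboxylate transporter (65.7 to 208 CPM, 1.66, SE 0.35), and Pfkfb4 (0.79 to 2.22 CPM, 1.49, SE 0.34). Counts in controls were low for Slc16a3 (14, 7 and 7), Pdk3 (4, 12 and 21) and Pfkfb4 (16, 25 and 25). Without control 3 the value for Pdk3 was 2.48, and its call was lost without control 2 (adjusted p = 0.0694) or gSpns1-cKO 2 (0.0534). The 2 that fell were Pfkfb3, which like Pfkfb4 sets the level of fructose-2,6-bisphosphate, the activator of phosphofructokinase (47.5 ± 7.62 to 18.2 ± 8.24 CPM, log2 fold change -1.39, SE 0.33, edgeR adjusted p = 0.0175, and 0.0591 without gSpns1-cKO 3), and Pdk2 (155 ± 4.10 to 109 ± 6.11 CPM, -0.50, SE 0.11). With library size as the only scaling Pdk2 was at -0.06 (adjusted p = 0.646). The main hepatocyte glucose transporter Slc2a2 (log2 fold change -0.21, SE 0.16) and the widely expressed Slc2a1 (-0.06, SE 0.17) overlapped between groups.

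Several of the 9 genes overlap the span of a gene on the opposite strand. These are Hk3 with Unc5a (34 bases), Pfkp with Pitrm1 (748 bases), Aldoa with Fam57b (3084 bases), Hk1 with Hk1os and Hk2 with Gm17034. Pkm overlaps the span of AC160637.1 by 3887 bases on its own strand. Spans run from gene start to gene end, introns included, and overlap of exons alone was not measured. Whether counting used the strand is not given in the sources used here. The partner AC160637.1 had at most 64 counts in a library, Fam57b at most 18, and Hk1os and Gm17034 at most 1. Unc5a had 54, 73 and 46 counts in controls and 173, 178 and 176 counts in gSpns1-cKO, near the counts of Hk3 in controls and higher in gSpns1-cKO as Hk3 was. Pitrm1 had 645, 594 and 567 counts in controls and 1068, 1334 and 1239 counts in gSpns1-cKO, above those of Pfkp in every control library. The part of reads shared with these partners in the values of Hk3 and Pfkp was not tested. The near-identical copies of Ldha and Pkm summed to at most 67 counts and 21 counts in a library.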

How the data were processed

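Poly-A RNA-Seq of 6 mouse livers (3 gSpns1-cKO, 3 control; groups from the sample labels) was analysed. The authors deposited raw read counts for every gene and library. Per the labels and the submitters' processing notes, reads were handled with fastp, HISAT2 2.0.5 and featureCounts 1.5.0-p3 on mm10; strand setting and the treatment of reads that fit several genes are not given in the sources used here. The authors' table also holds FPKM, a signal per group (group means), and the log2 fold change and p-value columns of their own comparison, none of which was used.

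Counts were tested with edgeR 4.0.16 (R 4.3.3). After filterByExpr, which kept 15449 genes, libraries were scaled by TMM and compared by the robust quasi-likelihood test with Benjamini-Hochberg adjustment (threshold 0.05). SE is the log2 fold change over the square root of F. Alternatives used limma 3.58.1, DESeq2 1.42.0, other scalings, filters and a threshold of 0.01, and left out each mouse. Copies were found with BLAST 2.17.0 (95% identity, 100 bases), and figures were drawn with matplotlib 3.10.9. An offset of 0.5 CPM was used for gaps and likeness. Scripts were tested on simulated data. All libraries differed from each other by more than sampling noise (chi-square per gene 29.4 to 83.9 within groups). Same-numbered libraries of the groups did not deviate together (correlations -0.03 to 0.04 over genes), so numbers were not taken as pairs. Nothing says that the mice came from separate litters. The edgeR p-values set a group difference against the spread between these mice, estimated with information shared over genes.

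The members and lists were chosen with earlier results of these data known. The rule for naming genes took the 9 genes, their isoform pairs, all other glycolysis enzymes tested, the 4 transporters or regulators with the largest change per direction past the threshold, the reference genes, Spns1 and the genes most like Gapdh. Some genes and pairs of these lists are not reported here, and counts, medians and adjusted p-values of pairs are over those that are. The intervals cover counting error only, since reads carry no molecular identifiers.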

Additional observations from a re-analysis of the deposited data

How the results depend on the processing

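The counts of 6 higher and 1 lower of the 9 genes, and the directions of those 7 genes, held with DESeq2, limma-voom, RLE and upper-quartile scaling, both filters, a threshold of 0.01, the replicate block, added copies and each mouse left out. With library size only, which set the median of all genes at 0.46 log2 units and gave 7289 genes higher and 970 lower against 3286 and 3166, 0 of the 9 were lower (1 at an unadjusted p under 0.05, edgeR), 9 other enzymes were higher and 0 lower (0 also unadjusted), and 1 regulator was lower; the log2 fold change turned for Pfkl (0.39), Tpi1 (0.40), Pgk1 (0.40), Pgam2 (0.23), Bpgm (0.24), Slc2a1 (0.38) and Slc2a2 (0.23). Upper-quartile scaling (median 0.14, 4111 higher and 2240 lower) turned Pfkl (0.074), Tpi1 (0.086), Pgk1 (0.083) and Slc2a1 (0.068). With Gapdh as the only scaling reference the median of all genes was 2.95, 49 genes were higher and 17 lower, and 0 genes of any of the 3 lists were called in either direction (edgeR; at an unadjusted p under 0.05, 6 of the 9, 5 other enzymes and 10 regulators were higher and 0 lower); the log2 fold change became positive for Pfkl (3.01), Ldha (2.02), Pfkm (2.25), Tpi1 (2.88), Pgk1 (2.98), Pgam2 (2.30), Eno3 (2.39), Bpgm (2.82), Slc2a1 (2.78), Slc2a2 (2.87), Pfkfb3 (1.31), Pdk2 (2.39) and Spns1 (1.86). A threshold of 0.01 left 5 regulators higher and 1 lower, and the filter of 1 count in any library gave 2 other enzymes lower. The filter of 10 counts in every library gave 3 other enzymes and 7 regulators higher. Leaving out 1 mouse gave 3 to 5 other enzymes higher and 1 to 2 lower (2 without control 3). It gave 6 to 9 regulators higher (6 without control 2) and 1 to 3 lower. Log2 fold changes then ranged from -0.19 to 0.12 for Pfkl, -0.11 to 0.19 for Aldoc, -0.0071 to 0.34 for Gapdhs, -0.13 to 0.057 for Pgk1 and -0.20 to 0.068 for Slc2a1. The difference of the Slc2a1 to Slc2a2 log2 ratio ranged from -0.0071 to 0.42, and the range of Gapdh from 0.91 (without gSpns1-cKO 3) to 4.63. Where a direction turned on scaling, the choice of scaling itself moved all genes; other causes were not tested. With the replicate block, 3084 genes were higher and 3016 lower; the log2 fold change was 1.63 for Pkm and -0.81 for Ldha, and the Pgam1 call was lost (adjusted p = 0.0643). The same numbers did not correlate best with each other in every case, so the block rests on a number only. Hkdc1 and Eno2 had at most 3 counts in any control library, which limits the precision of their ratios.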
